A study of Cyprinus carpio with 9 samples.

Results

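The 100 most abundant transcripts of carp liver were the 100 gene IDs, of 42997 in all, with the highest mean level over 8 of the study's 9 libraries. Members were selected on this mean level alone. Level is FPKM, fragments per kilobase of transcript scaled to the reads of the library, so that long and short transcripts can be compared. The ninth library, labelled earthworm+duckweed 3, was left out of the ranking because it stood far apart from the others, and its levels are described separately. Because the mean level chose the members, their high levels are a description and not a finding.

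Liver messenger RNA came from adult common carp (Cyprinus carpio) of 492.6 ± 30 g that were given 1 of 3 foods, with 90 fish in each food group. The foods were earthworm (animal), duckweed (a floating water plant) and a 1:1 mixture of both. Livers were taken under MS-222 anaesthesia after a 24 h fast, in every group alike. Each diet had 3 libraries by its labels, although the design text calls them duplicates. The labels do not say how many fish went into a library or whether livers were pooled, so every p-value measures the spread between these libraries, which may be partly technical.

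As background, a liver cell devotes much of its messenger RNA to proteins it secretes into the blood, such as carriers of lipid, iron and hormones, clotting factors and enzyme inhibitors. Other transcripts that are abundant in the liver, such as those of ribosomal proteins, are needed in nearly every cell. The liver of carp can also hold islands of exocrine pancreas, whose digestive enzymes are made from very abundant transcripts of their own. None of these classes could be assigned here. The deposited tables carry IDs without gene names, and a carp gene table from RefSeq matched 0 of the 42997, so members are given by their ID, and the liver label could not be checked against marker genes.

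The libraries held between 9915585 and 11883466 reads. In the 8 ranked libraries FPKM summed to between 733206 and 858418 and between 6861 and 10377 gene IDs were at 0. In the library labelled earthworm+duckweed 3 FPKM summed to 573863 and 3174 gene IDs were at 0. No member had fewer than 494 reads in any of the 8 libraries, so counting error was small beside the spread between libraries. The labels give no batch or sequencing date.

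The members spanned a wide range of levels. Mean FPKM over the 8 libraries was 72405 for the first member, 1869 for the median member and 1068 for the 100th, a 67.8-fold range. Only 12 members exceeded 10000 FPKM, and 54 lay under 2000. At the lower boundary the levels were close: rank 99, CAFS_CommonC_G_055946, had a mean of 1101 FPKM and rank 100, CAFS_CommonC_G_012134, had 1068, while the first 2 genes outside, CAFS_CommonC_G_091874 and CAFS_CommonC_G_036967, had 1051 and 1045. Ranking by the median over the 8 libraries shared 97 of the 100 members, ranking by the mean of the 3 diet means shared all 100, and adding the ninth library to the mean shared 98. The members' transcripts were short, with a median length of 953.5 bases (224 to 5047) against 2047 bases over all genes tested. That was not particular to these 100, since the next 100 ranks had a median of 912 bases, and by share of reads, which is not divided by length, 72 of the members were among the first 100.

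A pair of transcripts stood above the rest. CAFS_CommonC_G_016105 reached 88748, 57522 and 86383 FPKM in earthworm libraries 1 to 3, 54895 and 61900 in mixed-diet libraries 1 and 2, and 80657, 71349 and 77789 in duckweed libraries 1 to 3. In FPKM as deposited, earthworm and duckweed overlapped, and the mixed-diet libraries sat low, with 1 of them inside the range of earthworm. After the scaling between libraries used in the comparisons below, both mixed-diet libraries lay inside that range. CAFS_CommonC_G_068807 had 66771, 68236 and 55748 FPKM on earthworm, 96004 and 85565 on the mixed diet, and 20600, 30267 and 23244 on duckweed. Here the 3 diets did not overlap in FPKM as deposited: the mixed diet was highest, earthworm was between, and duckweed was lowest. After that scaling, earthworm library 1 lay above mixed-diet library 2, while duckweed remained lowest without overlap. CAFS_CommonC_G_016105 was the most abundant transcript in earthworm libraries 1 and 3 and in all 3 duckweed libraries, and CAFS_CommonC_G_068807 was first in earthworm library 2 and both mixed-diet libraries.

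The next 8 members ranged from 23600 to 13923 FPKM in the mean of the 8 libraries. CAFS_CommonC_G_068809, the fourth, had 26099, 33321 and 22632 FPKM on earthworm, 37782 and 30572 on the mixed diet, and 10585, 15332 and 11373 on duckweed, with all 3 duckweed libraries below every other library. CAFS_CommonC_G_042877, the ninth, followed the same order of groups, with 18733 ± 4526 FPKM on earthworm (SD, n = 3), 20122 ± 4081 on the mixed diet (SD, n = 2) and 8280 ± 2846 on duckweed (SD, n = 3). CAFS_CommonC_G_004942 and CAFS_CommonC_G_024451 were highest on duckweed. CAFS_CommonC_G_004942 had 16365 ± 1706 FPKM on earthworm, 17830 ± 611 on the mixed diet and 22554 ± 2551 on duckweed, and CAFS_CommonC_G_024451 had 13759 ± 3415, 13389 ± 416 and 20540 ± 1142. In both, every duckweed library was above every other library in FPKM as deposited. After the scaling used in the comparisons below, this held for CAFS_CommonC_G_024451 but not for CAFS_CommonC_G_004942. Duckweed library 1 of the latter then lay below earthworm library 1 and both mixed-diet libraries. The scaled log2 fold changes between duckweed and earthworm were 0.43 ± 0.24 for CAFS_CommonC_G_024451 and 0.28 ± 0.27 for CAFS_CommonC_G_004942 (SE). For CAFS_CommonC_G_009449, CAFS_CommonC_G_073180, CAFS_CommonC_G_049907 and CAFS_CommonC_G_016097 the duckweed and earthworm libraries overlapped.

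**Figure D1:**
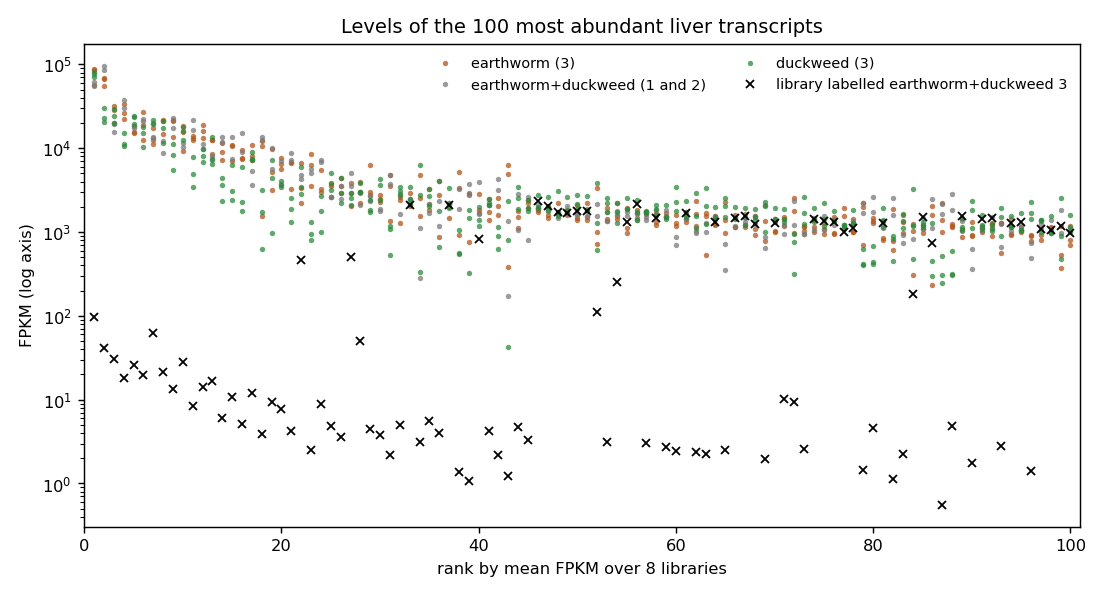
FPKM (log axis) of each of the 100 members against its rank by mean FPKM over 8 libraries, with 1 point for each library, coloured by diet, and a cross for the library labelled earthworm+duckweed 3. The points fall from left to right by construction. Of the crosses, 60 lie at 96.5 FPKM or less, and 40 lie from 111 to 2362 FPKM, mostly among the other libraries' points. These 2 groups are not set apart by a wide gap in FPKM itself.

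Membership of a library's own first 100 was similar on the 3 diets. Of the members, 86, 86 and 86 were among the 100 most abundant transcripts of earthworm libraries 1 to 3, 85 and 87 in mixed-diet libraries 1 and 2, and 78, 85 and 84 in duckweed libraries 1 to 3. Over the libraries of a diet, 92 members were in the first 100 of earthworm, 89 in that of the mixed diet, 88 in that of duckweed, and 73 in all 3. Just 49 members were among the first 100 of all 8 libraries. The lowest rank that any member took was between 171 and 376 in 7 of the libraries and 1156 in duckweed library 1. That lowest member was CAFS_CommonC_G_019518.

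Members differed widely in how steady they were across the 8 libraries. The ratio of the highest to the lowest FPKM had a median of 2.44. It was under 2 for 35 members, between 2 and 5 for 36, between 5 and 10 for 21 and over 10 for 8. Among the next 100 ranks the median ratio was 2.23, and the 4 classes held 40, 44, 7 and 9 transcripts. These ratios are of FPKM as deposited, and after scaling between libraries the members' median was 2.78, with 38 under 2. The 5 steadiest members as deposited were CAFS_CommonC_G_078828, CAFS_CommonC_G_030769, CAFS_CommonC_G_010467, CAFS_CommonC_G_050057 and CAFS_CommonC_G_001814, with ratios of 1.29 to 1.60. After scaling, CAFS_CommonC_G_078828 was less steady than CAFS_CommonC_G_010467 and CAFS_CommonC_G_050057. CAFS_CommonC_G_078828 had 1734, 1731 and 1627 FPKM on earthworm, 1495 and 1402 on the mixed diet and 1806, 1757 and 1702 on duckweed.

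At the other end, CAFS_CommonC_G_019518 had 6332, 4915 and 385 FPKM on earthworm, 173 and 1337 on the mixed diet and 42.3, 810 and 2353 on duckweed, a 150-fold range. Its high and low libraries were spread over all 3 diets. CAFS_CommonC_G_000749 had 10623, 12152 and 1549 FPKM on earthworm, 12472 and 13600 on the mixed diet and 622, 3147 and 1719 on duckweed, so that earthworm library 3 sat with the duckweed libraries. CAFS_CommonC_G_089787 had 4817, 2558 and 1547 FPKM on earthworm, 287 and 1121 on the mixed diet and 332, 2758 and 6249 on duckweed, with the widest spread inside the duckweed group. CAFS_CommonC_G_042872 and CAFS_CommonC_G_010134 completed the 5 widest in FPKM as deposited, with ratios of 11.5 and 10.8. Of the variance of log2 levels over the 8 libraries, a median of 33.4% lay between diets for the members and 25.2% for all genes tested. With so few libraries, part of the variance lies between diets by chance alone, so these percentages are not sizes of a diet effect.

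The 100 members together held the larger part of the summed FPKM in each of the 8 libraries. Their share was 68.6%, 66.2% and 64.5% in earthworm libraries 1 to 3, 67.8% and 65.6% in mixed-diet libraries 1 and 2, and 56.4%, 60.2% and 56.9% in duckweed libraries 1 to 3. All 3 duckweed libraries were below every library of the other diets. The means were 66.4 ± 2.04% on earthworm (SD, n = 3), 66.7 ± 1.56% on the mixed diet (n = 2) and 57.8 ± 2.04% on duckweed (n = 3). The difference of duckweed from earthworm was −8.59 percentage points (two-sided exact permutation test, p = 0.1) and that from the mixed diet was −8.88 points (exact permutation test, p = 0.1), and 0.1 is the smallest p that these numbers of libraries allow. The mixed diet and earthworm differed by 0.292 points, less than the spread between libraries (exact permutation test, p = 0.9). The comparisons share libraries with each other, and the members were ranked on a mean that includes all of these libraries. With 100 genes ranked only in the diet that is not compared, the 3 differences were −9.32, −9.53 and 0.0457 points. In bulk liver, fewer cells of a type and less RNA per cell cannot be told apart.

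Not every member had a lower share on duckweed. Between duckweed and earthworm, 35 members held a lower mean share on duckweed and their differences summed to −16.3 percentage points, of which the 10 largest made up −12.3. The other 65 held a higher share, and their differences summed to 7.67 points. Shares are parts of 1 total, so a lower share of some transcripts raises that of others whose level is unchanged. In scaled levels 44 members, not 65, were higher on duckweed than on earthworm. CAFS_CommonC_G_068807 alone differed by −4.45 points, from 7.79% of summed FPKM on earthworm to 3.33% on duckweed. The largest difference in the other direction was that of CAFS_CommonC_G_024451, from 1.69% to 2.77%. Between the mixed diet and earthworm the near-equal totals held larger differences of opposite sign, 3.21 points for CAFS_CommonC_G_068807 and −2.39 points for CAFS_CommonC_G_016105. The most abundant 10 members held 36.3 ± 2.38% of summed FPKM on earthworm, 35.8 ± 1.60% on the mixed diet and 31.8 ± 2.72% on duckweed, and duckweed library 2, at 35.0%, lay inside the range of the other diets. As a share of reads, which is not divided by length, the 100 members held 52.9 ± 3.5%, 53.4 ± 1.61% and 45.1 ± 2.09%.

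**Figure D2:**
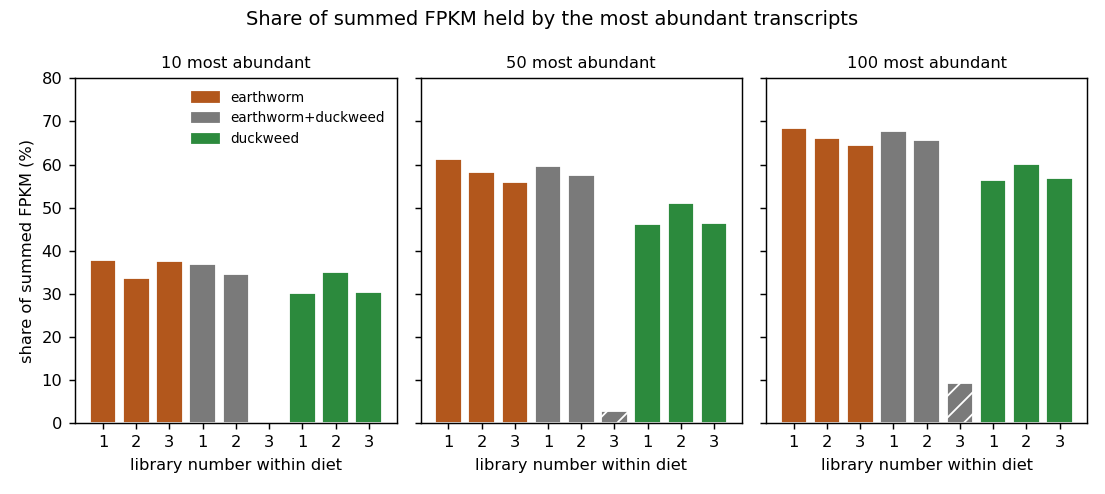
Share of summed FPKM (%) held by the 10, 50 and 100 most abundant transcripts, with 1 bar for each library, coloured by diet, and the library labelled earthworm+duckweed 3 hatched. For 100 transcripts the duckweed bars lie at 56.4 to 60.2%, below the earthworm and the other mixed-diet bars at 64.5 to 68.6%, and the hatched bar is at 9.27% (for 10 transcripts it is at 0.0624% and not visible).

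The question that the diets pose for single members is which of them differ between an animal and a plant food. No member was called in any of the 3 comparisons by limma, a linear model fitted across 20105 genes, at an adjusted p (Benjamini-Hochberg) under 0.05, and neither was any other gene (0% called in each). All 100 members passed the filter on low levels. limma-voom on the recovered reads called 0 as well. The following counts are therefore of members under an unadjusted p of 0.05, beside the share of all genes that did the same. The members were ranked on a mean that includes these libraries, most of them from diets other than duckweed alone. Transcripts low only on duckweed could therefore enter the 100 more easily than transcripts high only on duckweed. All genes also cover much lower levels, and the counts were not repeated with members ranked in the diet not compared.

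Between duckweed and earthworm, 22 members were lower on duckweed at that level, against 1.99% of all genes, and 1 was higher, against 2.79%. limma-voom gave 21 and 1. Their log2 fold changes ran from −2.72 to −0.998 with a median of −1.62, and over 17 alternative settings within the 8 libraries the lower count stayed between 19 and 25. The higher count ran from 0, without earthworm library 2, without duckweed library 3 or with a replicate block, to 5, with FPKM as deposited or without duckweed library 1. The genes higher at that level also moved, to 841 of 20105 as deposited and 915 of 19238 without duckweed library 1. The lower count was 0 when the library labelled earthworm+duckweed 3 was added to the fit, against 0.913% of genes. That library is in neither of the groups compared and enters here only through the filter, the scaling and the shared estimate of spread. With it the members' median log2 fold change was −0.05. In scaled levels, 18 members had all 3 duckweed libraries below all 3 earthworm libraries, against 3.88% of genes, and 4 had them above, against 5.07%. With FPKM as deposited the counts were 20, against 2.13%, and 8, against 7.8%. The median member did not share this direction clearly: its log2 fold change was −0.06 after scaling, 0.12 as deposited, beside 0.03 and 0.15 for all genes, and the SD of the members' median between libraries of a diet was 0.266. The split of higher and lower members moved with the scaling too, 44 to 56 after it and 60 to 40 as deposited.

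The lower member with the smallest p was CAFS_CommonC_G_010134. It had 6303, 8618 and 3542 FPKM on earthworm, 5054 and 5603 on the mixed diet, and 1302, 942 and 797 on duckweed, with all duckweed libraries below all others. Its log2 fold change between duckweed and earthworm was −2.72 ± 0.41 (SE), with an adjusted p of 0.325 by limma. Without earthworm library 3 it was −3.20 with an adjusted p of 0.00990 by limma, in a fit that called 11 of 19206 genes. This was the only setting in which a member was called in that comparison. Over the alternatives its adjusted p ran from 0.00990 to 1.00. CAFS_CommonC_G_055391 came next, with 1378, 2222 and 997 FPKM on earthworm and 304, 518 and 244 on duckweed. These groups did not overlap either, and the log2 fold change was −2.28 ± 0.43 (limma, adjusted p = 0.510, from 0.0688 to 1.00 over the alternatives).

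Of the higher members, 1 passed an unadjusted p of 0.05 and the next in order of p did not. CAFS_CommonC_G_081896 had 778, 904 and 915 FPKM on earthworm, 490 and 735 on the mixed diet and 1428, 1706 and 2272 on duckweed, with every duckweed library above all others. The log2 fold change from earthworm was 0.86 ± 0.34 (limma, adjusted p = 0.992), and 0.55 without duckweed library 3. CAFS_CommonC_G_063748, which did not pass, had 982, 1125 and 1914 FPKM on earthworm and 2553, 1900 and 1863 on duckweed. Earthworm library 3 lay inside the duckweed range in FPKM as deposited, but after scaling every duckweed library was above every earthworm library. The log2 fold change of CAFS_CommonC_G_063748 was 0.52 ± 0.26 (limma, adjusted p = 0.992).

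**Figure D3:**
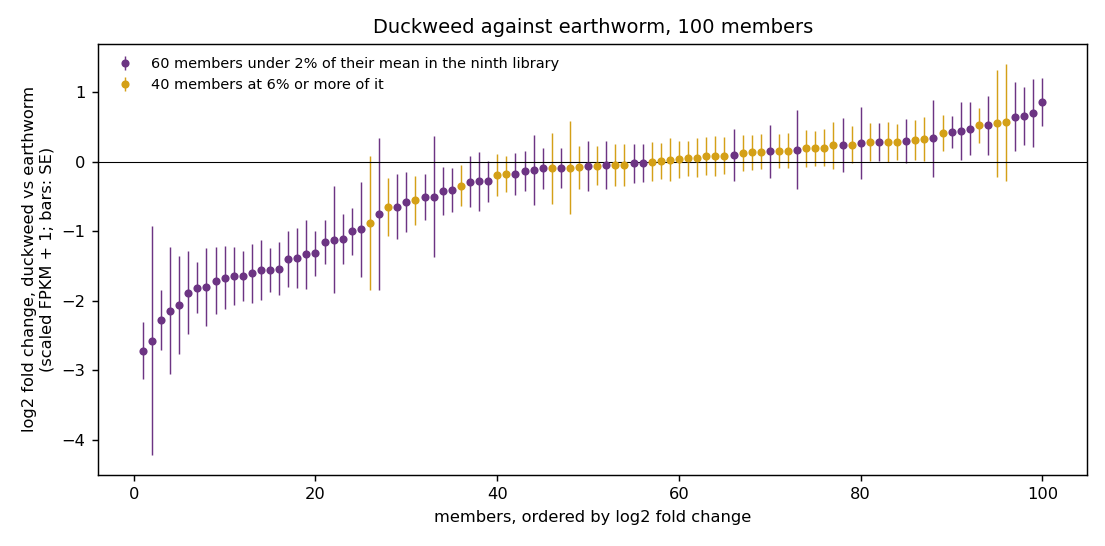
Log2 fold change of each of the 100 members between duckweed and earthworm (scaled FPKM + 1, limma over 8 libraries), ordered from lowest to highest, with bars of 1 SE. Colours separate the 60 members that were under 2% of their mean level in the ninth library from the 40 at 6% or more, and the values run from −2.72 to 0.86 with the lowest all among the 60.

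Between the mixed diet and earthworm few members stood apart: 1 was higher at an unadjusted p under 0.05, against 2.91% of all genes, and 1 was lower, against 2.54%. limma-voom gave 1 and 1, and over the alternatives within the 8 libraries each count stayed between 0 and 6. The count of 6 higher was without earthworm library 1, beside 528 of 19876 genes, and that of 6 lower was with FPKM as deposited, beside 509 of 20105. The mixed-diet group had 2 libraries here. In scaled levels 16 members did not overlap and were higher, against 13% of genes, and 9 were lower, against 8.82%, so both counts lay near the background. As deposited the counts were 10, against 7.84%, and 16, against 9.83%. Of the higher members, CAFS_CommonC_G_031846 had 1148, 1247 and 1186 FPKM on earthworm and 2839 and 1817 on the mixed diet, a log2 fold change of 1.00 ± 0.41 (limma, adjusted p = 0.886). CAFS_CommonC_G_079603 had 785, 612 and 1898 FPKM on earthworm and 2575 and 1611 on the mixed diet, with 1.14 ± 0.52 (limma, adjusted p = 0.916). Its groups overlapped in FPKM as deposited but not after scaling. Of the lower, CAFS_CommonC_G_058587 had 2280, 1397 and 972 FPKM on earthworm and 351 and 713 on the mixed diet, with −1.47 ± 0.58 (limma, adjusted p = 0.861). CAFS_CommonC_G_049907, the eighth most abundant member, had 20974, 14779 and 21814 FPKM on earthworm and 12112 and 8866 on the mixed diet, with −0.80 ± 0.36 (limma, adjusted p = 0.916), and it and CAFS_CommonC_G_079603 did not pass an unadjusted p of 0.05. These values rested partly on single libraries. Without mixed-diet library 1 the log2 fold change was 0.60 for CAFS_CommonC_G_031846 and 0.72 for CAFS_CommonC_G_079603. Without earthworm library 1 it was −0.96 for CAFS_CommonC_G_058587 and −0.53 for CAFS_CommonC_G_049907, which was −0.48 without mixed-diet library 2. With all 9 libraries the log2 fold changes of CAFS_CommonC_G_031846 and CAFS_CommonC_G_079603 took the other sign, and those of CAFS_CommonC_G_058587 and CAFS_CommonC_G_049907 were −4.22 and −4.25.

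Between duckweed and the mixed diet, 22 members were lower on duckweed at an unadjusted p under 0.05, against 3.15% of all genes, and 4 were higher, against 3.39%. limma-voom also gave 22 and 4, and the lower count stayed between 18 and 25 over the alternatives within the 8 libraries, but was 0 with all 9, against 1.17% of genes. The higher count was 10 with FPKM as deposited, where 1080 of 20105 genes were higher at that level. It was 8 without duckweed library 1, beside 770 of 19238 genes, and 3 with a replicate block, beside 452 of 20105. These settings do not span the range of the higher count, since fits that leave 1 mixed-diet library are not among them. With each library left out in turn, the log2 fold change ran from 1.01 to 1.55 for CAFS_CommonC_G_081896 and from 1.22 to 1.96 for CAFS_CommonC_G_016155, the higher members named below. This comparison shares its duckweed libraries with the one against earthworm. In scaled levels 29 members were lower with no overlap, against 12.7% of genes, and 11 were higher, against 11.5%. As deposited the counts were 23, against 5.53%, and 23, against 19.5%, and the split of higher and lower members was 38 to 62 after scaling and 63 to 37 as deposited.

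CAFS_CommonC_G_031846 was the lower member with the smallest p, with 305, 590 and 313 FPKM on duckweed against 2839 and 1817 on the mixed diet, a log2 fold change of −2.81 ± 0.41 (limma, adjusted p = 0.323). CAFS_CommonC_G_068807 followed at −2.14 ± 0.35 (limma, adjusted p = 0.323), from the levels given above. With all 9 libraries, both fold changes took the other sign. Of the higher members, CAFS_CommonC_G_081896 had a log2 fold change of 1.31 ± 0.38 (limma, adjusted p = 0.555). CAFS_CommonC_G_016155 had 358 and 629 FPKM on the mixed diet and 1116, 1834 and 2338 on duckweed, a log2 fold change of 1.58 ± 0.48 (limma, adjusted p = 0.565). With all 9 libraries these became 4.27 and 4.39.

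In the library labelled earthworm+duckweed 3, 60 of the 100 members, including the first 21, were at 1.67% of their usual level or less. CAFS_CommonC_G_016105 had 96.5 FPKM there and CAFS_CommonC_G_068807 had 41.7, which is 0.133% and 0.0748% of their means over the 8 libraries. All of the first 20 members were at 0.384% or less. The 100 members held 9.27% of that library's summed FPKM and 3.99% of its reads (exact binomial 95% interval 3.974 to 3.998, counting error only), against 56.4 to 68.6% of FPKM and 43.2 to 56.8% of reads in the other 8. The median rank of the members there was 4718.5, and 35 members were among its own first 100. No member was at 0: the lowest, CAFS_CommonC_G_055391, had 0.556 FPKM from 9 reads.

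The members fell into 2 sets in that library, with a wide empty interval between 1.67% and 6.10% of the mean of the 8 libraries. Below it were 60 members, at a median of 0.143% and between 0.556 and 96.5 FPKM. Above it were 40 members, at a median of 94.5% and between 111 and 2362 FPKM, of which 34 had at least 50% of their usual level. Of the 40, 31 lay within the range of the other 8 libraries, 7 lay below it and 2 above. The interval was found by looking at these values, so the 2 sets are a description. The 5 members with the highest level there were CAFS_CommonC_G_050057, CAFS_CommonC_G_085557, CAFS_CommonC_G_088724, CAFS_CommonC_G_042929 and CAFS_CommonC_G_047312, at 2362, 2173, 2127, 2126 and 2030 FPKM, against means of 2016, 1692, 2499, 2186 and 1920 FPKM over the 8 libraries.

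Levels under 1% of the mean of the 8 libraries were more frequent among the members than among less abundant transcripts. That mean also chose the members. Of the 100 members, 59% were under 1% of it, as were 26% of the next 100 ranks, 21.3% of the ranks from there to 1000 and 2.50% of the 18755 gene IDs with a mean of at least 1 FPKM. Conversely 0% of the members and 48.8% of those gene IDs were above 200%. FPKM is relative to a library's own reads, so levels across libraries of such different make-up depend on the scaling. After the 9 libraries were scaled together, with a factor of 2.44 for this library and 0.675 to 1.12 for the others, the 40 members had a median of 35.2% of their usual level and 38 of them lay below all 8, while the 60 had a median of 0.0517%. What sets this library apart was not tested.

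**Figure D4:**
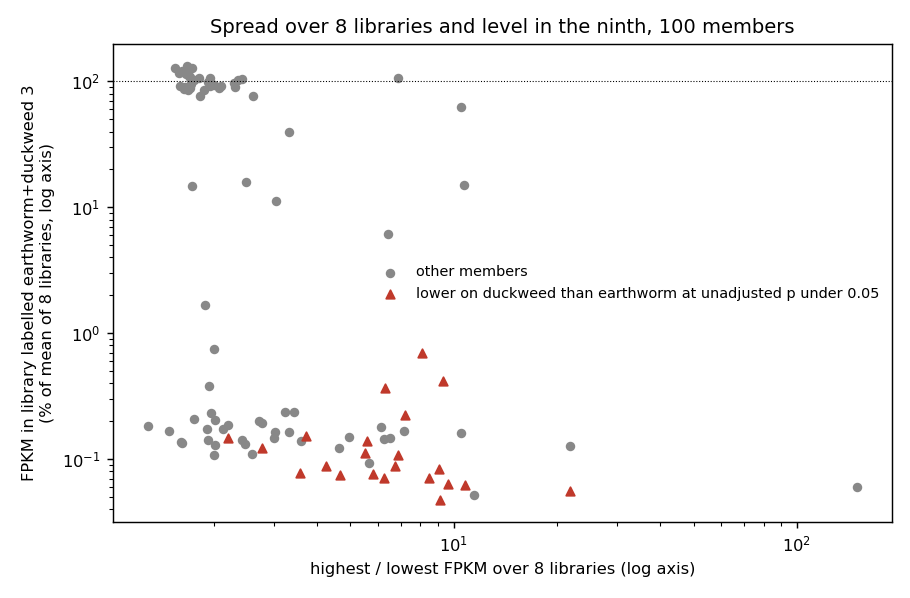
FPKM in the library labelled earthworm+duckweed 3 as a percentage of the mean of the other 8 libraries (log axis) against the ratio of highest to lowest FPKM over those 8 (log axis), with 1 point for each of the 100 members. Red triangles mark the 22 members that were lower on duckweed than on earthworm at an unadjusted p under 0.05, and all lie in the lower band, under 1%.

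The 60 and the 40 also differed in their place among the members, their length and their spread. The mean of the 8 libraries is part of the percentage that formed the sets, so rank and share in the 8 are not independent of it. The 60 included the first 21 members and held 55.1% of summed FPKM on average in the 8 libraries (45.5 to 62.3%), and 0.111% in the ninth. The 40 began at rank 22 with a median rank of 67.5 and held 8.21% (6.22 to 10.8%) in the 8 libraries and 9.16% in the ninth. Transcripts of the 60 had a median length of 1185 bases and those of the 40 had 724.5. Over the 8 libraries the ratio of highest to lowest FPKM had a median of 3.64 in the 60, with 10 members under 2, and of 1.85 in the 40, with 25 under 2. After scaling the medians were 4.47 and 1.71, with 7 and 31 members under 2.

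All 22 members that were lower on duckweed than on earthworm at an unadjusted p under 0.05 were among the 60, and 0 were among the 40, beside 1.99% of all genes. Over 18 settings within the 8 libraries the counts were 19 to 23 and 0 to 2. Between duckweed and the mixed diet the lower members were 21 of the 60 and 1 of the 40, beside 3.15% of all genes. The members higher on duckweed at that level were also all among the 60. They were 1 against earthworm, beside 2.79% of all genes, and 4 against the mixed diet, beside 3.39%, with 0 among the 40 in each. The median log2 fold change between duckweed and earthworm was −0.46 in the 60, between −0.59 and −0.10 over the settings, and 0.09 in the 40, between 0.03 and 0.26. Between duckweed and the mixed diet the medians were −0.16, between −0.21 and 0.08 over the settings, and −0.12, between −0.16 and 0.13, and both were positive with FPKM as deposited. No test was made of the difference between the sets, since they were formed after their values were seen.

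Within the 40, levels varied together from library to library. The median Pearson correlation between pairs of the 40 over the 8 libraries was 0.63, against −0.02 between pairs of the 60 and −0.11 between the sets. In scaled levels the first 2 of these were 0.54 and 0.30. These are descriptions over 8 libraries that share their depth and scaling. As deposited, 29 of the 40 were highest in duckweed library 1, where they held 10.8% of summed FPKM. After scaling, 13 were highest there and 13 in earthworm library 1.

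**Figure D5:**
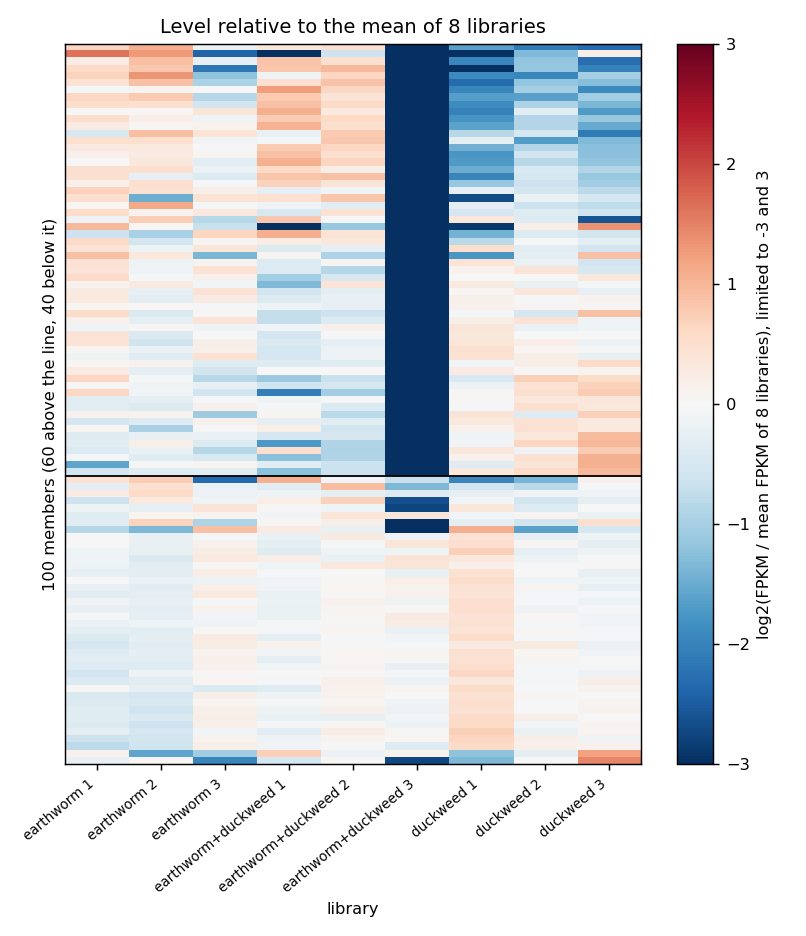
Log2 ratio of FPKM to the mean of 8 libraries (colour, limited to −3 and 3) for each of the 100 members (rows) in each of the 9 libraries (columns), with the 60 members above the black line and the 40 below it. Within each set the rows are ordered by the log2 fold change between duckweed and earthworm. The column of the library labelled earthworm+duckweed 3 is at the lower limit for the 60 and near 0 for most of the 40. A block of the 60 is blue in the 3 duckweed columns, placed together by that order.

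Members with neighbouring ID numbers often had similar profiles. Of the 100 members, 21 had another member within 10 ID numbers, as had 18 of the next 100 ranks, 8 of the 100 after those and 4 of the 100 that follow rank 1000. Whether ID numbers follow the order of genes in the genome is not given in the sources used here. In log2 FPKM as deposited, CAFS_CommonC_G_068807, CAFS_CommonC_G_068809 and CAFS_CommonC_G_068817 correlated over the 8 libraries with Pearson's r between 0.92 and 0.99. CAFS_CommonC_G_016097, CAFS_CommonC_G_016104 and CAFS_CommonC_G_016105 had r between 0.69 and 0.88, and CAFS_CommonC_G_042872, CAFS_CommonC_G_042874 and CAFS_CommonC_G_042877 had r between 0.63 and 0.97, while CAFS_CommonC_G_091873 and CAFS_CommonC_G_091883 had −0.33. Their recovered lengths differed, at 374, 987 and 560 bases for the first 3, 673, 742 and 421 for the next 3, and 1169 and 2642 for the last pair. Whether any of them are near-identical copies that share reads was not tested, since no sequence was at hand.

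Over all 4950 pairs of members the median r of log2 FPKM as deposited was −0.01, and 206 pairs exceeded 0.9. Like those of the neighbouring IDs, these values of r can partly reflect differences in scale between libraries. The closest pair was CAFS_CommonC_G_086170 and CAFS_CommonC_G_031846 at 0.994, both lower on duckweed at an unadjusted p under 0.05 in the comparison with earthworm. CAFS_CommonC_G_068809 and CAFS_CommonC_G_055391 followed at 0.991, and CAFS_CommonC_G_057286 and CAFS_CommonC_G_047305 at 0.989. Between libraries, the rank correlation of the 100 members' levels was 0.574 to 0.882 for the 7 pairs of 1 diet (median 0.717) and 0.363 to 0.815 for the 21 pairs of different diets (median 0.619), so that the ranges overlapped. With the library labelled earthworm+duckweed 3 it was −0.263 to 0.371.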

How the data were processed

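Liver messenger RNA was measured in 9 libraries, and diet and library number come from sample titles and descriptions. Per the file headers, the deposited values are FPKM for each gene ID. HTSeq 0.6.0 is named as the counting tool in the list of software, per the submitters' processing notes. Aligner, genome build, annotation and strand: not given in the sources used here. Near-identical copies, overlapping genes and antisense genes therefore cannot be told apart.

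The members, lists and alternatives were chosen with earlier results of these data known. Each library's read total and 42996 transcript lengths were recovered from the size of 1 read in low FPKM values (99.999% of values whole within 0.02 reads, by construction). A count of 0 allows up to 3 reads, 0.252 to 0.303 CPM. On simulated reads 8 of 8 totals were exact, as were 99.69% of the lengths of the 27880 genes with reads in every library. That percentage does not cover genes with fewer reads. Within a diet, libraries differed beyond sampling noise (chi-square divided by its degrees of freedom was 41.9 or more), so none was counted as a copy.

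FPKM was divided by trimmed-mean scaling factors (30% of ratios and 5% of levels trimmed, from the recovered reads) and put on a log2 scale with a pseudocount of 1, on which fold changes of low genes are understated. limma 3.58.1 in R 4.3.3 (trend and robust options) fitted 1 mean per diet over 8 libraries to 20105 genes with 1 FPKM in 3 or more libraries, with two-sided tests, Benjamini-Hochberg adjustment over these genes and a threshold of 0.05. In simulated data for duckweed against earthworm over 19899 genes, 2%, 32%, 62% and 70% of genes changed 2-, 4-, 8- and 16-fold were called, with 5 false calls. Shares were compared by exact permutation in Python 3.11.15.

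Alternatives were all 9 libraries, median-ratio scaling, unscaled FPKM, a pseudocount of 0.1, other filters, limma-voom, only the groups compared, a replicate block, non-robust moderation, other sets of abundant genes for the share, and leaving out each library. Fits of all 9 libraries with unscaled FPKM, the share of each library's own 100 and the settings for the members' median and the ninth library's share were chosen after seeing the data. The IDs named are the 10 most abundant, the 5 with the largest and the 5 with the smallest ratio, the 5 highest in the ninth library and its leading 2 non-members, the 2 higher and 2 lower with the smallest p in each comparison, the ranks at the boundary and the 3 closest pairs. Neighbours by ID number, and the lowest members in a library, were picked after their values were seen. Marker lists required names and are not used here.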

Additional observations from a re-analysis of the deposited data

Results flagged for a closer look

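A pair of transcripts that are not among the 100 led the library labelled earthworm+duckweed 3, which enters the comparisons of diets only in the alternatives with all 9 libraries. CAFS_CommonC_G_021668 was first there with 14939.8 FPKM, against 7.56 to 68.9 FPKM in the other 8 libraries with a median of 47.5. CAFS_CommonC_G_012009 was next with 10670 FPKM, against 474 to 705 FPKM in the other 8 with a median of 584. Both levels were above every other library. Of that library's own 100 most abundant transcripts, 65 were not members. In FPKM as deposited, 38 of these were above all other 8 libraries, and 20 were over 10 times the highest of them. They were picked for their high level there, and some were only slightly above the other libraries. These counts were not repeated after scaling, where the factor was 2.44 for this library and 0.675 to 1.12 for the others. No gene names are paired with these IDs.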

How the results depend on the processing

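No member was called in any comparison under any setting except 1, the fit without earthworm library 3. There CAFS_CommonC_G_010134 was called in both comparisons with duckweed, so the count of members called ranged from 0 to 1 over the libraries left out. Of all genes, that fit called 11 of 19206 between duckweed and earthworm and 2 of 19206 between duckweed and the mixed diet. The share of the 100 kept its sign against duckweed when each library was left out, from −9.75 to −7.51 points against earthworm and from −10.0 to −7.78 against the mixed diet, while that of the mixed diet against earthworm ran from −0.812 to 1.40. With the library labelled earthworm+duckweed 3 included, the mixed diet was −18.9 points from earthworm and duckweed 10.3 points from the mixed diet. In that library the share was 3.99% of reads, and 2.82% and 19.3% of FPKM for 50 and 200 genes. With all 9 libraries, scaled and as deposited, the log2 fold changes between the mixed diet and earthworm were −2.29 and −1.94 for CAFS_CommonC_G_031846 and −2.44 and −2.23 for CAFS_CommonC_G_079603. Those between duckweed and the mixed diet were 0.48 and 0.30 for CAFS_CommonC_G_031846 and 2.06 and 1.79 for CAFS_CommonC_G_068807. The members' median became −2.96 and −2.61 between the mixed diet and earthworm and 1.48 and 1.35 between duckweed and the mixed diet. These last reversals come from adding that 1 library, which also takes the counts of members lower on duckweed at an unadjusted p under 0.05 from 22 to 0 against either diet. Against earthworm the log2 fold change of CAFS_CommonC_G_010134 stayed at −2.71 with it, beside −2.72 without it. With the replicate number as a block, the share on duckweed differed by −8.59 points from earthworm (exact sign-flip p = 0.25) and by −8.44 points from the mixed diet. The share on the mixed diet differed from earthworm by −0.660 points, the other sign from the 0.292 without the block. limma with this block called 0 members. The sign-flip test cannot go below 0.25 with 3 pairs. Over all genes tested, same-numbered libraries did not deviate together (correlations from −0.412 to −0.009). Over the members their correlations ran from −0.617 to 0.220, and those of differently numbered libraries from −0.276 to 0.587. The numbers were not taken as pairs. With 2 or 3 libraries a diet and simulated 4-fold changes called in 32% of genes, smaller differences are mostly not detectable in genes like those simulated. The simulation drew genes over a wide range of levels with independent noise, so it does not give the detection rate for the 100 members.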
